A study of Mus musculus with 8 samples.

Results

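The genes described here encode 9 proteins of gluconeogenesis and glycogen metabolism, namely G6pc, Slc37a4, Pck1, Fbp1, Ppp1r3b, Ugp2, Gys2, Pygl and Gbe1. They were taken by name, 9 of the 22180 genes that the arrays measured with a probe set assigned to a single gene. Where a gene had several probe sets, the brightest on average over the 8 arrays stood for it. The cells were AML12, a hepatocyte line established from the liver of a mouse transgenic for human TGF-alpha. The knockout cultures were VWA8-null: the gene for VWA8, a mitochondrial protein with an ATPase domain, had been deleted with CRISPR/Cas9. They were set against wild-type AML12 cultures. There were 4 separate cultures of each genotype, all differentiated before RNA was taken, with 1 Affymetrix mouse array per culture. Both genotypes grew in the same medium with serum, insulin, transferrin, selenium and dexamethasone, a synthetic glucocorticoid. The labels do not say whether the knockout cells were 1 clone or more, so effects of a clone and of the deletion cannot be told apart.

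Hepatocytes release glucose into the blood from 2 sources, new synthesis from lactate, amino acids and glycerol, and stored glycogen. In gluconeogenesis phosphoenolpyruvate carboxykinase (Pck1) and fructose bisphosphatase (Fbp1) bypass irreversible steps of glycolysis. Both routes end at glucose-6-phosphate, which the transporter Slc37a4 carries into the endoplasmic reticulum, where the catalytic subunit G6pc splits off the phosphate. For storage Ugp2 makes UDP-glucose, the liver glycogen synthase Gys2 builds it into chains, Gbe1 adds branches, and Ppp1r3b brings protein phosphatase 1 to the particle, while the liver phosphorylase Pygl takes glucose units off again. In liver, transcription of G6pc and Pck1 is known to be induced by glucagon and glucocorticoids and repressed by insulin.

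The medians of the arrays ran from 4.27 to 4.33 (log2 signal), and arrays of different genotype correlated at 0.978 to 0.984 over all probe sets, those of the same genotype at 0.985 to 0.989. The targeted transcript, Vwa8, read 5.12, 5.22, 5.07 and 5.33 in knockout arrays, against 8.95, 9.01, 8.91 and 8.95 in wild-type arrays. Whether its probes fall inside the deletion is not stated. The hepatocyte list of 8 genes averaged 10.47 to 10.58 on the knockout arrays and 9.41 to 9.51 on the wild-type arrays. All 8 were higher in the knockout, as were 10.4% of all genes. The cells were not marked by hepatocyte genes alone. The cholangiocyte and progenitor markers Sox9 (10.18 in the knockout and 10.07 in the wild type) and Krt19 (8.47 and 8.66) were also bright. Tat (tyrosine breakdown) was higher by 2.51 ± 0.063, Cps1 (urea cycle) by 1.94 ± 0.072, Fgb (fibrinogen beta chain) by 1.29 ± 0.059 and Apoa1 (a lipoprotein component) by 0.73 ± 0.056 (log2 fold change ± SE). The smallest rises on the list were those of Alb, at 0.23 ± 0.048, and Ttr, at 0.24 ± 0.054.

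Of the 9 genes, 6 were higher in the knockout and none was lower at an adjusted p below 0.05 in limma, a linear model fitted over all 22180 genes. Over all genes 20.9% passed in either direction, 10.4% as higher and 10.4% as lower. The rise was largest for G6pc, at 6.15-fold, and lay between 1.35-fold and 1.77-fold for Slc37a4, Ppp1r3b, Ugp2, Gbe1 and Gys2. Pck1, Fbp1 and Pygl did not pass. The 9 genes had a median log2 fold change of 0.65, against -0.003 over all genes. They were chosen with earlier results of these data known, so their share is a description and not a test. Because this is bulk RNA, more cells of a type and more RNA per cell cannot be told apart. The hepatocyte markers moved in the same direction as these genes, and their part in the result was not tested.

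**Figure D1:**
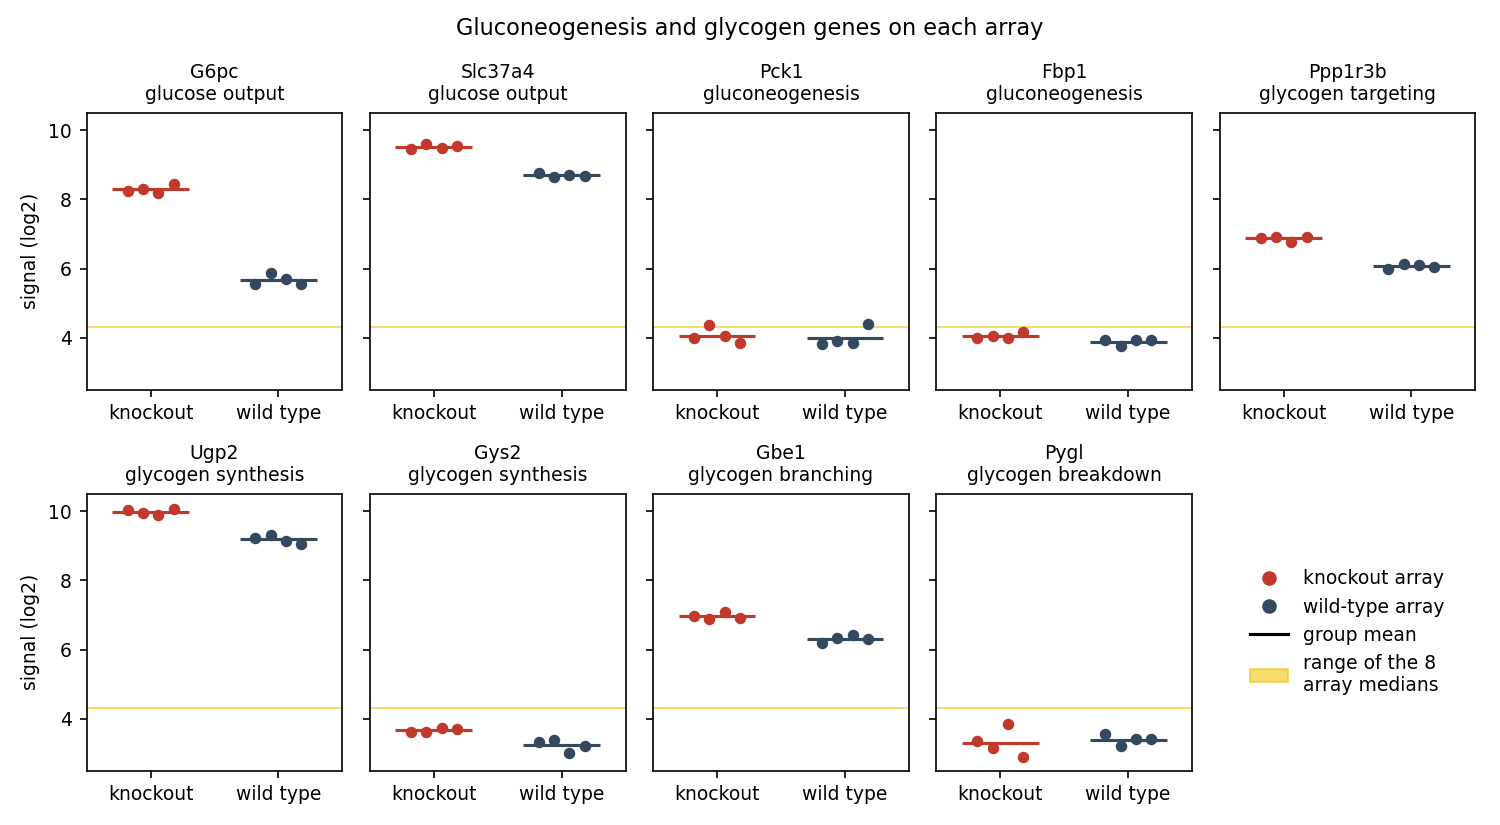
Log2 signal of each of the 9 genes on every array, with 4 knockout arrays (red, left) and 4 wild-type arrays (dark, right) per panel, a line for each group mean, and a yellow band from 4.27 to 4.33 for the range of the array medians. G6pc, Slc37a4, Ppp1r3b, Ugp2 and Gbe1 lie well above the band and are higher in every knockout array, while Pck1, Fbp1, Gys2 and Pygl lie around or below it.

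The final step of glucose release showed the largest change. G6pc (probe set 17256707) read 8.25, 8.29, 8.19 and 8.45 on the knockout arrays, against 5.57, 5.88, 5.71 and 5.55 on the wild-type arrays. The groups were separated by 2.31 between the lowest knockout and the highest wild-type array. The means were 8.29 ± 0.111 in the knockout and 5.67 ± 0.154 in the wild type (SD, n = 4 each), a log2 fold change of 2.62 ± 0.092 (SE, adjusted p = 5.46e-07). By size of rise G6pc ranked 10 among the 22180 genes. Its partner Slc37a4 (probe set 17516594) was bright in both genotypes, with 9.45, 9.61, 9.50 and 9.55 in knockout cells, against 8.77, 8.64, 8.70 and 8.69 in wild-type cells. Its arrays did not overlap either, and its log2 fold change was 0.83 ± 0.059 (adjusted p = 2.23e-05), or 1.77-fold. Within each array, G6pc minus Slc37a4 averaged -1.23 ± 0.102 in the knockout and -3.03 ± 0.193 in the wild type (SD, n = 4 each). The change of G6pc therefore exceeded that of Slc37a4 by 1.79. A two-sided exact permutation test gave p = 0.0286, the smallest that 4 against 4 arrays allow. Benjamini-Hochberg adjustment over the 9 gene pairs compared made it 0.0643. The pairs were chosen with earlier results of these data known. G6pc separated the genotypes by more than Slc37a4 varied over the 8 arrays, so this p was bound to be the smallest and adds no support.

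The promoters of G6pc and Pck1, textbook examples of hormone-controlled liver promoters, are shown with that of Slc37a4. G6pc and Slc37a4 rose in the knockout, and Pck1 did not pass the threshold. Pck1 averaged 4.07 in the knockout and 4.00 in the wild type, below every array median. Expression and background cannot be separated there, so Pck1 cannot serve as a promoter that did not respond. The windows run from 250 bases before to 50 bases after the gene start and come from RefSeq on build GRCm38.p6, and the 3 shown are on the plus strand. Capitals mark matches to any of 11 short motifs searched on both strands. G6pc lies at chr11:101367466-101367765, Pck1 at chr2:173152823-173153122 and the first of the 3 Slc37a4 windows at chr9:44396696-44396995.
G6pc: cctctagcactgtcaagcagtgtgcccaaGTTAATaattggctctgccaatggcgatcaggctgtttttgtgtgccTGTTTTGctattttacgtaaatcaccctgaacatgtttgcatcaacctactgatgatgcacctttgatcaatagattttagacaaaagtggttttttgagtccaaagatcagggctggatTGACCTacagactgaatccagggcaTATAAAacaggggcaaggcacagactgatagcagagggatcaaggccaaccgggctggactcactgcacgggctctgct
Pck1: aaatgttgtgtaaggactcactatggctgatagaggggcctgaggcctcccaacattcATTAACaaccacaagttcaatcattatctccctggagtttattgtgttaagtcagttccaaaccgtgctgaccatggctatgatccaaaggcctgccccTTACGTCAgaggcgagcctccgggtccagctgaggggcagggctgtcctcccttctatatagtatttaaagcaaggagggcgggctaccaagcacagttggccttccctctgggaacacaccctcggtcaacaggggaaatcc
Slc37a4: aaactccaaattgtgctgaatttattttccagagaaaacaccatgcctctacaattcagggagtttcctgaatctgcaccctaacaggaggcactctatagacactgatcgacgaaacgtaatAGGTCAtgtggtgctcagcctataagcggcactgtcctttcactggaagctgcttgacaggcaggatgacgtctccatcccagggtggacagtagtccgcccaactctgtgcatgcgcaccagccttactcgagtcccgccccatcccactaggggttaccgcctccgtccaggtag

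In the G6pc window the capitals are GTTAAT, an HNF1 motif, with its first base at -221 from the start, then TGTTTTG, the core of the insulin response element, at -174, TGACCT at -54 and TATAAA, the TATA box, at -29. TGACCT is the reverse complement of AGGTCA, the hexamer that many nuclear receptors share. The Pck1 window held ATTAAC, the HNF1 motif read from the other strand, at -192 and TTACGTCA, the form of the cAMP response element known from this gene, at -93. In the Slc37a4 window AGGTCA began at -127.

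Windows were found for 7 of the 9 genes, 10 windows in all. Ppp1r3b and Gys2 had none in the table. Among all 32851 windows, TTACGTCA occurred in 0.499%, TGTTTTG in 6.28%, GTTAAT in 7.10%, TATAAA in 13.6% and AGGTCA in 16.3%. The consensus cAMP response element TGACGTCA (1.79% of all windows), which differs from the Pck1 form at 1 base, was in none of the 10. Nor were TGTTTAC, the FOXA and FOXO core that begins with the same 5 bases as TGTTTTG (3.65%), CAAAGTCC, a core of HNF4A sites (1.42%), AGAACA, a glucocorticoid receptor hexamer (19.0%), and the E-box CACGTG (7.15%). The C/EBP motif TTGCNNAA (10.8% of all windows) matched only in the second window of Ugp2. No motif was found for all 4 genes that rose and had a window (G6pc, Slc37a4, Ugp2 and Gbe1). AGGTCA was found for G6pc and Slc37a4 and also for Pygl, and TATAAA for G6pc and, in its last window, Slc37a4. Base composition also differed among the genes, with 46.7% G and C in the G6pc window, 52.0% in that of Pck1, 67.0% in that of Pygl and 63.3% and 76.0% in those of Ugp2, against a median of 52.7% over all windows. A match is a description of these letters, and no match says nothing about binding.

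**Figure D2:**
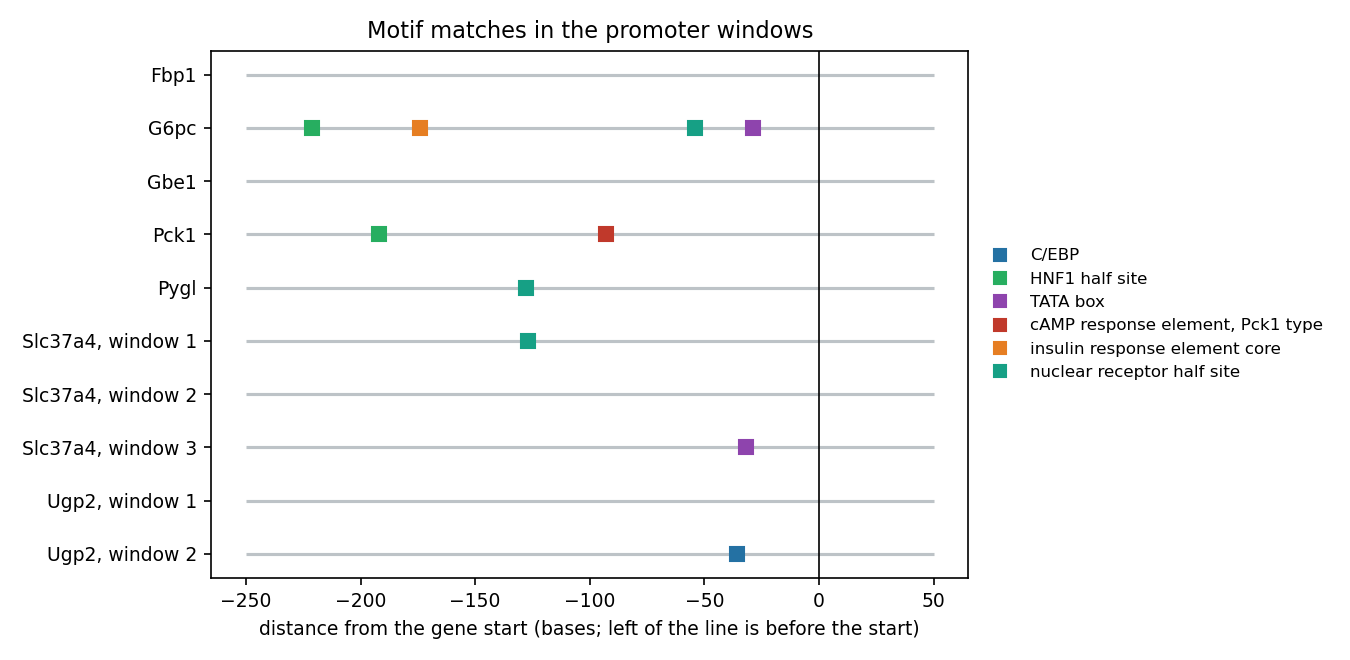
Positions of motif matches (coloured squares, at the first base of the match) in the 10 promoter windows of 7 genes, along the distance in bases from the gene start (black line). G6pc has 4 matches and Pck1 2, while the windows of Fbp1 and Gbe1, the second of Slc37a4 and the first of Ugp2 have none.

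Of the 9 genes, the gluconeogenic enzymes Pck1 and Fbp1 did not pass the threshold, both at a dim signal. Pck1 (probe set 17380222) read 4.00, 4.36, 4.05 and 3.86 in knockout cells, against 3.83, 3.91, 3.85 and 4.39 in wild-type cells. The groups overlapped, and wild-type replicate 4 was the highest of all 8 arrays. The log2 fold change was 0.07 ± 0.148 (adjusted p = 0.806), with a 95% interval from -0.27 to 0.41, that is from 0.832-fold to 1.33-fold, below the interval of 2.41 to 2.83 for G6pc. Leaving out wild-type replicate 4 gave 0.20 (adjusted p = 0.307), and leaving out knockout replicate 2 gave -0.03 (adjusted p = 0.929). Fbp1 (probe set 17293557) read 4.00, 4.05, 4.00 and 4.18 in the knockout, against 3.93, 3.77, 3.93 and 3.92 in the wild type. Its arrays did not overlap, as for 26.1% of all genes in either direction, and the gap was 0.07. The log2 fold change of 0.17 ± 0.067 missed the threshold (adjusted p = 0.122; 95% interval 0.02 to 0.32). It passed at 0.25 (adjusted p = 0.0336) when the median change of the nearest 30 genes on each side along the chromosome was subtracted. The means of both genes, Pck1 at 4.07 in the knockout and 4.00 in the wild type and Fbp1 at 4.06 and 3.89, lay below the median of every array. At so dim a signal expression and background cannot be separated in these values.

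The 3 enzymes of glycogen synthesis among the 9 genes all rose. Ugp2 (probe set 17260916), which supplies UDP-glucose, read 10.04, 9.94, 9.88 and 10.06 in knockout cells, against 9.22, 9.31, 9.15 and 9.07 in wild-type cells. Each knockout array was above each wild-type array, with a log2 fold change of 0.79 ± 0.073 (adjusted p = 8.81e-05). Gbe1 (probe set 17326567), the branching enzyme, read 6.96, 6.88, 7.10 and 6.92 in the knockout, against 6.20, 6.32, 6.42 and 6.31 in the wild type, at 0.65 ± 0.072 (adjusted p = 2.43e-04). Gys2 (probe set 17472497), the synthase, was dim, with 3.62, 3.63, 3.74 and 3.70 in knockout arrays, against 3.33, 3.40, 3.00 and 3.22 in wild-type arrays. It passed at 0.44 ± 0.090 (adjusted p = 0.00820), but both means, 3.67 in the knockout and 3.24 in the wild type, stood below the array medians, and it is not tested once the dimmest 50% of probe sets are left out.

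Ppp1r3b, the regulatory subunit that targets the phosphatase to glycogen in liver, was measured by 2 probe sets that gave different sizes of change. The brighter (17500543) read 6.88, 6.92, 6.78 and 6.91 in knockout cells, against 5.99, 6.13, 6.10 and 6.05 in wild-type cells, a log2 fold change of 0.80 ± 0.060 (adjusted p = 2.81e-05). The dimmer (17500548) read 5.34, 5.45, 5.60 and 5.53 in knockout cells, against 5.45, 5.26, 5.27 and 4.81 in wild-type cells. Here the groups overlapped, and the log2 fold change of 0.28 missed the threshold (adjusted p = 0.192 over all probe sets with a single gene). The mean of both gave 0.54 (adjusted p = 0.00106).

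The gene of glycogen breakdown did not pass the threshold. Pygl (probe set 17281721), the liver phosphorylase, read 3.36, 3.16, 3.84 and 2.90 in knockout arrays, against 3.56, 3.21, 3.41 and 3.43 in wild-type arrays. The knockout arrays held both the highest and the lowest value, with an SD of 0.400, against 0.146 in the wild type. The log2 fold change was -0.09 ± 0.182 (adjusted p = 0.807; 95% interval -0.50 to 0.33), and without knockout replicate 4 it turned to 0.05. Over the 9 genes as a whole, 7 had all knockout arrays above all wild-type arrays, where 12.9% of all genes did. The genes around each one on its chromosome were little shifted, with a median log2 fold change of the nearest 30 genes on each side between -0.08 (Ppp1r3b) and 0.09 (Ugp2).

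**Figure D3:**
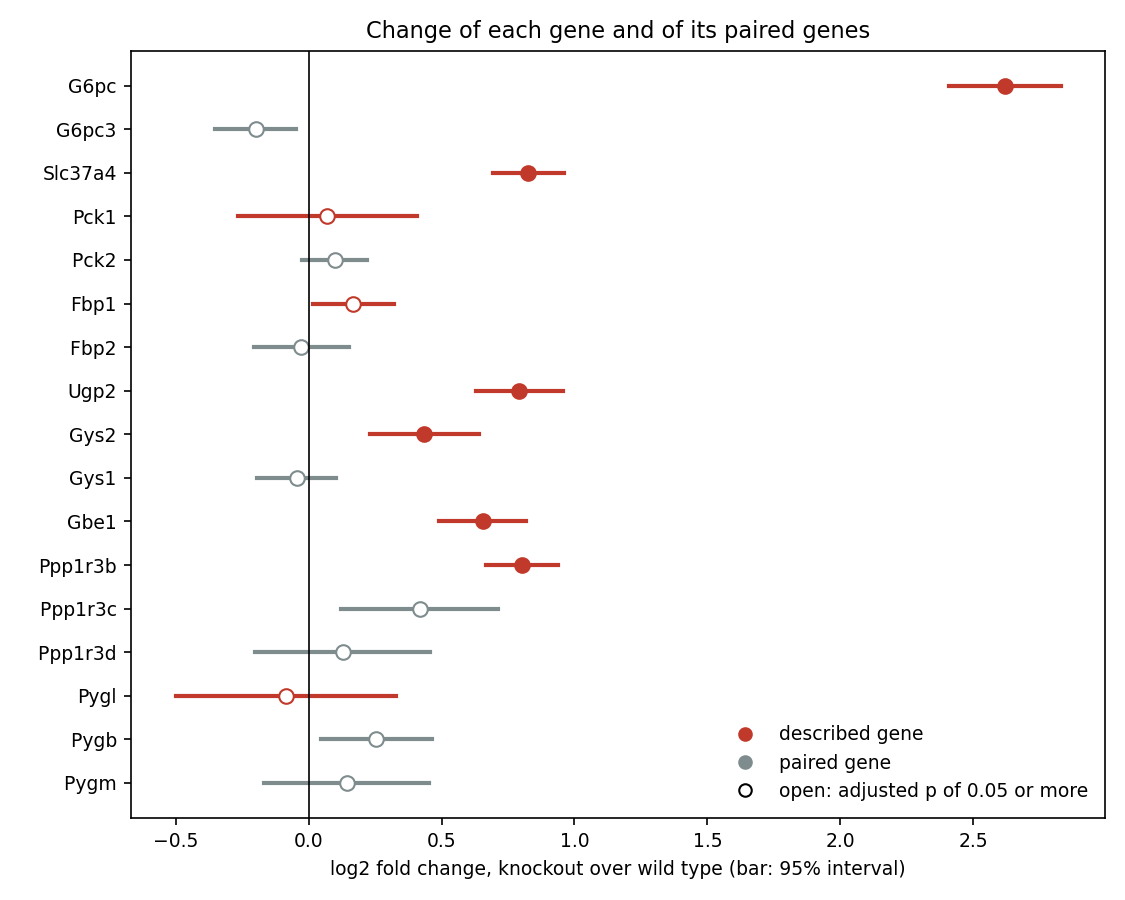
Log2 fold change (knockout over wild type, 95% interval as a bar) of each of the 9 genes in red and of its paired genes in grey, with open circles for an adjusted p of 0.05 or more. The red circles of G6pc, Slc37a4, Ugp2, Gys2, Gbe1 and Ppp1r3b are filled, and all 8 grey circles are open.

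Several of these genes have relatives that do the same reaction in other tissues or compartments, and 8 such pairs were compared within each array, besides G6pc with Slc37a4. These pairs too were chosen with earlier results of these data known, so their p-values are descriptions. None of the 8 relatives passed the threshold. G6pc3, the widely expressed glucose-6-phosphatase, averaged 6.27 ± 0.057 in knockout and 6.47 ± 0.099 in wild-type cells (SD, n = 4 each), at -0.20 ± 0.067 (adjusted p = 0.0689). Leaving out wild-type replicate 2 put G6pc3 past the threshold, at -0.24 (adjusted p = 0.0448), as did 3 other alternatives. G6pc minus G6pc3 averaged 2.02 ± 0.099 in the knockout and -0.80 ± 0.229 in the wild type, so that their changes differed by 2.82. The two-sided exact permutation test gave p = 0.0286, or 0.0643 adjusted over the 9 pairs. G6pc separated the genotypes by more than G6pc3 varied over the 8 arrays, so this p was bound to be the smallest. Gys1, the synthase known from muscle, averaged 8.21 ± 0.088 in the knockout and 8.26 ± 0.061 in the wild type, at -0.05 ± 0.065 (adjusted p = 0.711). The change of Gys2 exceeded that of Gys1 by 0.48, with no overlap of the differences between genotypes (exact permutation test, p = 0.0286; 0.0643 adjusted over the 9 pairs). Gys2 lay below every array median, where expression and background cannot be separated, so the size of this difference is uncertain.

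Of the other phosphatase-targeting subunits, Ppp1r3c stood at 0.42 ± 0.130 (adjusted p = 0.0520) and passed in 5 of the 16 alternatives that measured it, among them without wild-type replicate 1 at 0.53 (adjusted p = 0.00813). Ppp1r3d stood at 0.13 ± 0.145 (adjusted p = 0.624). The change of Ppp1r3b exceeded that of Ppp1r3d by 0.68 (exact permutation test, p = 0.0286; 0.0643 adjusted over the 9 pairs), or by 0.41 with the mean of its probe sets (p = 0.0571 in the same exact test), and that of Ppp1r3c by 0.39 (exact permutation test, p = 0.114; 0.171 adjusted), or by 0.12 with the mean of its probe sets. For the genes that did not rise, no difference from the relative was resolved. Pck2, the mitochondrial carboxykinase, was well above the array median at 8.43 ± 0.024 in knockout and 8.33 ± 0.058 in wild-type cells, a change of 0.10 ± 0.054 (adjusted p = 0.272). Fbp2 stood at -0.03 ± 0.079 (adjusted p = 0.858), the brain phosphorylase Pygb at 0.25 ± 0.092 (adjusted p = 0.0899; past the threshold in 2 alternatives) and the muscle phosphorylase Pygm at 0.14 ± 0.136 (adjusted p = 0.550). The exact permutation p of their pairs with Pck1, Fbp1 and Pygl ran from 0.0857 to 0.857.

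Other genes of the pathway were counted from lists. Together 5 lists of enzymes and transporters held 59 measured genes, of which 15 were higher and 8 lower in the knockout (39.0%, against 20.9% of all genes), with a median log2 fold change of 0.05. The listed genes were brighter: 10 of the 59 had both means below every array median, against 9744 of all 22180 genes. The share among genes of like brightness was not computed. The lists were chosen with earlier results of these data known, so their share is a description and not a test. Among 10 measured genes of the remaining gluconeogenic steps and the steps shared with glycolysis, 20% passed, near the 20.9% of all genes. Of these 10 genes, 2 rose and none fell (median 0.05). One was Slc2a2, the glucose transporter of the hepatocyte surface, which read 11.7 ± 0.073 in knockout and 10.6 ± 0.071 in wild-type cells and rose by 1.18 ± 0.063 (adjusted p = 4.73e-06). The other was Pcx, pyruvate carboxylase, the entry step of gluconeogenesis in the mitochondrion. Pcx read 5.80, 5.64, 5.66 and 5.69 in knockout arrays, against 5.28, 4.96, 4.73 and 4.81 in wild-type arrays, a rise of 0.76 ± 0.115 (adjusted p = 0.00157).

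Genes that bring substrate into the pathway moved in both directions, with 7 of 13 higher and 4 lower (median 0.24). The share past the threshold was 84.6%, against 20.9% of all genes. The lactate and pyruvate transporter Slc16a1 rose by 0.66 ± 0.058, the mitochondrial aspartate aminotransferase Got2 by 0.56 ± 0.061, the mitochondrial alanine aminotransferase Gpt2 by 0.49 ± 0.072 and the cytosolic glycerol-3-phosphate dehydrogenase Gpd1 by 0.48 ± 0.062. Those lower, named after their values were seen, were the mitochondrial Gpd2 at -0.29 ± 0.073, the cytosolic aminotransferase Got1 at -0.28 ± 0.054, the mitochondrial malate dehydrogenase Mdh2 at -0.26 ± 0.055 and the glycerol channel Aqp9 at -0.21 ± 0.065. Aqp9 was barely past the threshold (adjusted p = 0.0487) and missed it in 12 of 17 alternatives, and Gpd2 (adjusted p = 0.0228) missed it without wild-type replicate 2 or 3 or knockout replicate 1 or 2, at -0.25 to -0.27. Mdh2 missed it, at -0.16, when the change of neighbouring genes was subtracted. The count lower was 2 without wild-type replicate 2, knockout replicate 1 or knockout replicate 2, and also when the change of neighbouring genes was subtracted.

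**Figure D4:**
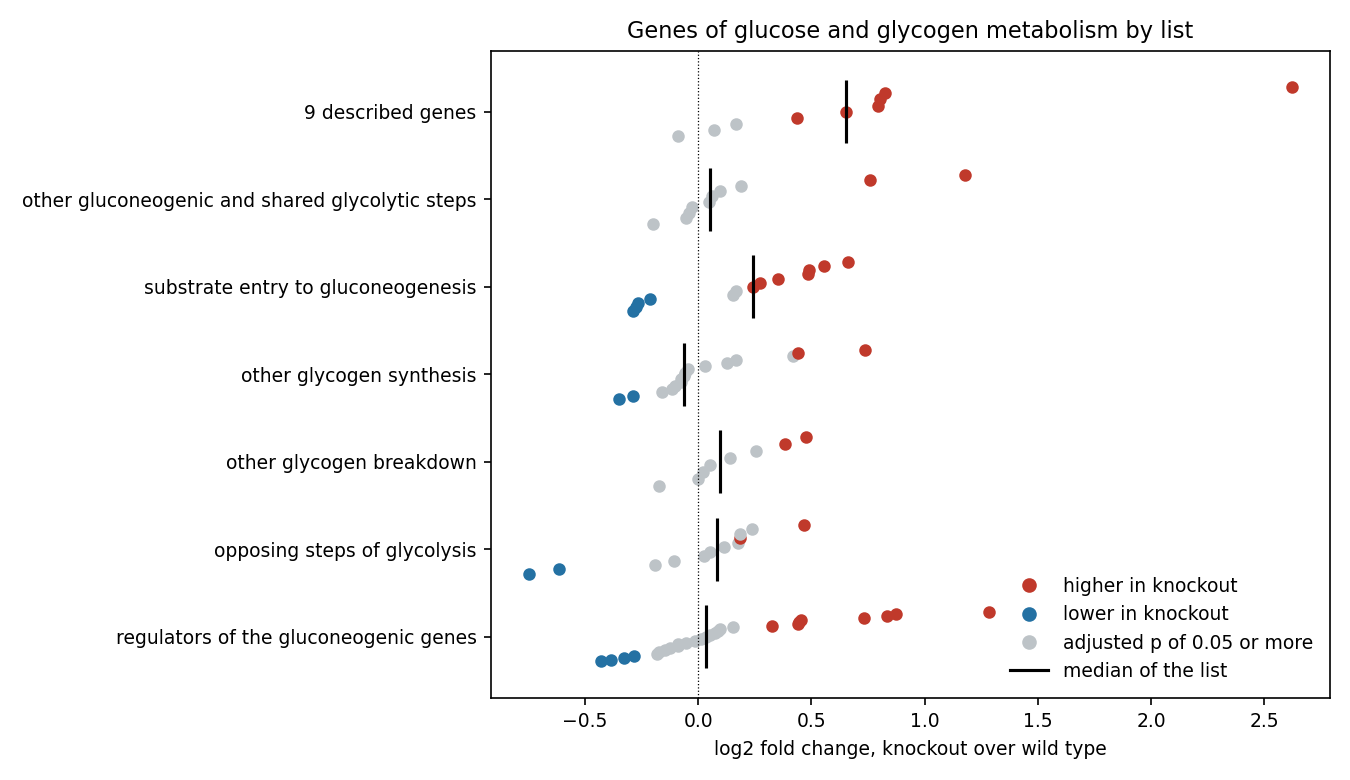
Log2 fold change (knockout over wild type) of every measured gene on 7 lists, 1 point per gene, red where higher, blue where lower and grey where the adjusted p was 0.05 or more, with a black bar at each list's median. The described genes have a median of 0.65, and the medians of the other lists run from -0.06 to 0.24.

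Beyond the enzymes described, 2 of 16 other glycogen synthesis genes rose and 2 fell (25%, near the 20.9% of all genes, median -0.06). Stbd1, a glycogen-binding protein, rose by 0.74 ± 0.111 (adjusted p = 0.00154) and Gyg, glycogenin, which primes new glycogen chains, by 0.44 ± 0.073 (adjusted p = 0.00259). Pgm2, of the phosphoglucomutase family, was lower at -0.35 ± 0.076 (adjusted p = 0.0109), and Nhlrc1, the ubiquitin ligase malin, at -0.29 ± 0.060 (adjusted p = 0.00891). Nhlrc1 was dim and missed the threshold with an intensity trend (adjusted p = 0.0591). Of 8 other glycogen breakdown genes, 2 rose and none fell (25%, also near the share of all genes, median 0.10). These were the lysosomal glucosidase Gaa, by 0.47 ± 0.067 (adjusted p = 0.00108), and Phkb, a subunit of phosphorylase kinase, by 0.38 ± 0.063 (adjusted p = 0.00244).

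The glycolytic steps that run against gluconeogenesis had 2 of 12 genes higher and 2 lower (33.3%, against 20.9% of all genes, median 0.08). Pkm, the pyruvate kinase of non-liver tissues and growing cells, was lower, at 10.04 ± 0.088 in knockout and 10.79 ± 0.073 in wild-type cells, a change of -0.74 ± 0.067 (adjusted p = 8.11e-05). Hexokinase 1 (Hk1) was lower by -0.62 ± 0.070 (adjusted p = 3.10e-04). The liver pyruvate kinase Pklr was higher by 0.18 ± 0.054 (adjusted p = 0.0409), and the glucokinase regulator Gckr by 0.47 ± 0.128 (adjusted p = 0.0306) at a dim signal. These rises did not hold in all settings: Pklr missed the threshold in 10 of 17 alternatives, with 0.08 after subtracting the change of neighbouring genes, and neither gene passed without wild-type replicate 1, 3 or 4 or without knockout replicate 1.

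Of 27 measured regulators of the gluconeogenic genes, 8 were higher and 4 lower (44.4%, against 20.9% of all genes, median 0.03). Mlxipl, the carbohydrate response factor ChREBP, was higher in every knockout array than in any wild-type array, a rise of 1.28 ± 0.096 (adjusted p = 2.88e-05). Klf15, a zinc finger factor that promotes amino acid use for gluconeogenesis in mouse liver, rose by 0.83 ± 0.081 (adjusted p = 1.29e-04). Foxo1, the forkhead factor that insulin signalling excludes from the nucleus, rose by 0.73 ± 0.075 (adjusted p = 1.73e-04), and Irs1, an insulin receptor substrate, by 0.88 ± 0.089 (adjusted p = 1.59e-04). Both are values of the brighter of 2 probe sets, and the mean of the probe sets gave 0.44 (adjusted p = 9.50e-04) for Foxo1 and 0.64 (adjusted p = 0.00347) for Irs1. Hnf4a, the nuclear receptor behind many hepatocyte genes, was higher by 0.45 ± 0.055 (adjusted p = 4.66e-04). The remaining higher regulators, named after their values were seen, were Cebpa, Crtc2 and Gcgr. Cebpa rose by 0.44 ± 0.071 (adjusted p = 0.00227), Crtc2 by 0.33 ± 0.071 (adjusted p = 0.0107) and Gcgr by 0.45 ± 0.124 (adjusted p = 0.0309). Gcgr was dim, at 4.70 in the knockout and 4.24 in the wild type.

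Of 5 regulators named whatever their values, Hnf4a and Foxo1 rose, as given above, and the rest did not pass the threshold. The coactivator Ppargc1a stood at 0.09 ± 0.071 (adjusted p = 0.456) and the glucocorticoid receptor Nr3c1 at 0.08 ± 0.070 (adjusted p = 0.529). Creb1, the factor that binds cAMP response elements, stood at -0.15 ± 0.062 (adjusted p = 0.145). Creb1 passed as lower in 2 alternatives, at -0.31 (adjusted p = 0.00847) after subtracting the change of neighbouring genes and at -0.15 (adjusted p = 0.0485) with an intensity trend. The 4 lower regulators, named after their values were seen, were Cebpb at -0.43 ± 0.076, the pseudokinase Trib1 at -0.38 ± 0.080, the AMP kinase subunit Prkaa2 at -0.32 ± 0.074 and the deacetylase Sirt1 at -0.28 ± 0.075. Sirt1 (adjusted p = 0.0263) missed the threshold in 7 of 17 alternatives, among them without any single one of wild-type replicates 2, 3 and 4 and knockout replicates 2 and 4, at -0.25 to -0.29. Prkaa2 (adjusted p = 0.0135) missed it with the replicate number as a block (adjusted p = 0.0598).

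The genes whose values ran closest to G6pc over the 8 arrays, after each was centred on its own mean, were Postn, Tat and Saa4, with root mean square differences of 0.088, 0.104 and 0.156 log2 units. Their log2 fold changes were 2.68 ± 0.072, 2.51 ± 0.063 and 2.40 ± 0.092. Closest to Slc37a4 were Kyat3 at 0.045, Mccc1 at 0.052 and Plekhb2 at 0.054, with log2 fold changes of 0.84 ± 0.057, 0.81 ± 0.068 and 0.78 ± 0.062. The measure includes the difference between genotypes.

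Markers of other cell types were also counted, and their part in the results was not tested. Over all genes 20.9% passed the threshold in either direction. None of 6 stellate cell and fibroblast markers passed the threshold (list mean per array 3.79 to 4.11 in the knockout and 4.01 to 4.11 in the wild type). The same held for 5 macrophage and leukocyte markers (3.88 to 4.06 in the knockout and 3.84 to 4.03 in the wild type) and 5 endothelial markers (3.87 to 3.96 in the knockout and 3.67 to 3.90 in the wild type). Of 5 cholangiocyte and progenitor markers none rose and 2 fell, the chloride channel Cftr at -0.92 ± 0.108 and the keratin Krt7 at -0.52 ± 0.084 (list mean 6.15 to 6.31 in the knockout and 6.44 to 6.60 in the wild type). The rest did not pass: Krt19 at -0.18 ± 0.078 (adjusted p = 0.146), Epcam at -0.04 ± 0.092 (adjusted p = 0.816) and Sox9 at 0.11 ± 0.053 (adjusted p = 0.210). For Sox9 all knockout arrays lay above all wild-type arrays. Kidney and gut markers, tissues that also make glucose, had 1 of 5 higher, Vil1, the microvillus protein villin, by 0.67 ± 0.052 (list mean 4.94 to 5.18 in the knockout and 4.83 to 4.97 in the wild type). No marker was listed at 0, and 5 of 6 stellate, 4 of 5 endothelial and 2 of 5 macrophage markers had both means below the array medians. The brightest on the stellate, endothelial and macrophage lists were Cd68, a macrophage marker, at 5.58 in the knockout and 5.47 in the wild type, and Acta2, smooth muscle actin, at 5.38 in the knockout and 5.34 in the wild type. Some markers on the remaining lists were far brighter in both genotypes. Sox9 stood at 10.18 in the knockout and 10.07 in the wild type, Krt19 at 8.47 and 8.66, and Vil1 at 9.19 and 8.52.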

How the data were processed

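Total RNA of 8 AML12 cultures, 4 VWA8-null and 4 wild type, was labelled with biotin and hybridised to Affymetrix mouse arrays, per the labels' protocols. The deposited table holds 1 value for each of 41345 probe sets and each array. Its log2 scale was read from the values (0.44 to 13.55), and the authors' background correction, normalization and summarisation are not stated there or in the labels. No further normalization was added, and no file gives a background or a detection call. Probe sets were named from the platform annotation: 23521 had 1 gene symbol, 1814 several and 16010 none listed.

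Genotypes were compared with limma 3.58.1 in R 4.3.3 (lmFit and eBayes, genotype as the only term, all 8 arrays, two-sided, Benjamini-Hochberg over 22180 genes, threshold 0.05). P-values measure the spread between these cultures. The fit was run on simulated data with independent noise and far fewer changed genes than were called here. That run checks the code and not the calls reported here. Exact permutation tests used SciPy 1.17.1 (Python 3.11.15) over the 70 arrangements. The members, lists, pairs and motifs were chosen with earlier results of these data known. Of 133 symbols on 12 lists, 120 were measured. Named genes are the members, their pairs, up to 4 genes per list with the smallest adjusted p past the threshold, 5 regulators whatever their values, Vwa8, and the 3 genes nearest to G6pc and to Slc37a4. Outside this rule, the lower genes of the substrate list (Gpd2, Got1, Mdh2 and Aqp9) and of the regulators (Cebpb, Trib1, Prkaa2 and Sirt1) were named after their values were seen. So were the remaining higher regulators (Cebpa, Crtc2 and Gcgr) and the cell type markers Alb, Ttr, Krt19, Epcam, Sox9, Cd68 and Acta2.

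Arrays of the same replicate number did not deviate together (correlations of deviations -0.002 to 0.059), so numbers were not taken as pairs. Alternatives were a fit with array weights, one with robust variances and an intensity trend, quantile normalization, centring on array medians, averaging the probe sets of each gene, dropping the dimmest 25% or 50%, the replicate block, subtracting the median change of the nearest 30 genes on each side, and leaving out each array. The number of arrays limits the precision.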

Additional observations from a re-analysis of the deposited data

Results flagged for a closer look

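In 18 groups of 4 arrays (9 genes, both genotypes), 2 held an array far from the other 3 by Dixon's criterion on the gap divided by the range. Chance alone marks about 5% of such groups. For Pck1, wild-type replicate 4 read 4.39, where the next wild-type array read 3.91 (ratio 0.864), and without it the log2 fold change of Pck1 was 0.20 in place of 0.07. For Fbp1, wild-type replicate 2 read 3.77, below the next wild-type array at 3.92 (ratio 0.933), and without it the change of Fbp1 was 0.13 in place of 0.17. Neither gene passed the threshold with or without the array.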

How the results depend on the processing

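Leaving out each array kept the 6 calls among the 9 genes. G6pc (2.57 to 2.69), Slc37a4 (0.80 to 0.85), Ppp1r3b (0.54 to 0.88), Ugp2 (0.70 to 0.83) and Gbe1 (0.61 to 0.71) passed in all 17 alternatives, and Gys2 (0.36 to 0.49) in the 16 that measured it. Without the dimmest 50% of probe sets 5 of the genes were higher, since Gys2, Pck1, Fbp1 and Pygl were left out. Subtracting the change of neighbouring genes made it 7, with Fbp1 at 0.25 (adjusted p = 0.0336). For Pck1, leaving out single arrays gave -0.028 to 0.20, and for Pygl -0.26 to 0.052, so neither has a settled direction. Fbp2 turned to 0.049 after subtracting the change of neighbouring genes and ran from -0.057 to 0.032 when single arrays were left out. Pck1 minus Pck2 turned to 0.0015 with quantile normalization and ran from -0.12 to 0.13 without single arrays. The cause was not tested. In the exact tests of pairs, 3 against 4 arrays cannot give a p below 0.0571. With the replicate block 6 of the 9 genes were higher and 3717 of all genes passed, against 4626 without it. The block left the calls of the 9 genes as they were, but left no glycolytic gene higher, against 2 without it, and 2 regulators lower, against 4. The deviations of same-numbered arrays correlated at -0.002 to 0.059, although 5 of 8 arrays correlated best with their own number. Dim signals limit Pck1, Fbp1, Gys2 and Pygl.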
